A study of Mus musculus with 8 samples.

Results

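Spindlin family genes were followed in round spermatids, the haploid germ cells that form after meiosis and have not yet elongated. The genes were Ssty1, Ssty2, Spin1, Spin2 and Spin4. Every array probe was taken whose platform symbol, current symbol or synonym was one of these names, and Spin2 is now a synonym of Spin2c. This gave 5 of the 19057 genes named on the array and 9 of its 45281 probes: 1 for Ssty1, 2 for Ssty2, 3 for Spin1, 2 for Spin2c and 1 for Spin4. Spns1, another gene that lists Spin1 among its synonyms, was not taken, since Spin1 is the current name of a different gene.

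The arrays were Illumina mouse bead arrays hybridized with total RNA of spermatids purified by centrifugal elutriation from mice aged 8 weeks. There were 2 arrays of mice with an shSLX RNAi construct, 2 arrays of mice with an shSLY RNAi construct and 4 wildtype arrays with no transgene. The constructs are meant to lower transcripts of the X-linked Slx family and the Y-linked Sly family by RNA interference. The labels give neither the promoter that drives either construct nor the mouse line, and the design text calls the controls matched for age and strain. They do not say that arrays of a group came from separate animals, so each p-value reflects the spread between arrays alone, which may be technical.

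Spindlins are chromatin readers built of repeated Tudor-like domains that hold histone H3 when its lysine 4 carries the methyl marks of active promoters. Spin1 was first known as an abundant protein of the mouse oocyte that associates with the meiotic spindle. Ssty1 and Ssty2 are relatives of it that became multicopy genes on the long arm of the mouse Y chromosome and are transcribed in spermatids. In mouse spermatids the proteins SLX, SLXL1 and SLY have been reported to bind spindlin proteins, and the balance between Slx and Sly products sets the expression of X and Y genes after meiosis.

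The 2 deposited tables did not match for most arrays, which bears on every direction below. The non-normalized table names its columns by array barcodes, which the sample labels tie to samples, while the series matrix names its columns by sample. Linked through the labels, 2 of the 8 non-normalized columns had the ranks over all probes of their own sample in the series matrix, 4 had those of another sample and 2 of none. The columns that the labels tie to wildtype 3 and 4 had the ranks of the series matrix's shSLY 1 and 2, and those tied to shSLY 1 and 2 had the ranks of its shSLX 1 and 2. Results rest on the series matrix, and the labels do not show whether its names or the barcodes are right. Tests covered the 16572 probes whose detection p-value was under 0.01 in 2 or more of the 8 non-normalized columns. Slides were read from the same barcodes, which place shSLX 1 and 2 with wildtype 3 and 4, and shSLY 1 and 2 with wildtype 1. If the ranks are followed instead, the shSLX values belong to the slide of wildtype 1, the shSLY values to the other slide and wildtype 3 and 4 to none that is known, so the slide term in the fits below is as doubtful as the names.

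The spermatid label was borne out by its markers: 12 of 13 round spermatid markers on the array were detected, with a summed intensity of 112266 to 117959 in shSLX arrays, 106625 to 112094 in shSLY arrays and 109051 to 114652 in wildtype arrays. Sertoli cell markers were detected for 5 of 9 genes and summed to 470 to 524 in shSLX arrays, 707 to 774 in shSLY arrays and 525 to 759 in wildtype arrays, with Gata4, Fshr, Dhh and Amh not detected. Meiotic cell markers were detected for 5 of 8 genes, with Sycp3, Dmc1 and Hormad1 not detected. Those detected summed to 3896 to 5986 in shSLX arrays, 3550 to 3816 in shSLY arrays and 3801 to 4516 in wildtype arrays. In bulk RNA, fewer cells of a type and less RNA per cell cannot be told apart.

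Only the Y-linked members gave a signal. The Ssty1 probe (ILMN_2771020) and 1 of the 2 Ssty2 probes (ILMN_2879232) were detected in every one of the 8 non-normalized columns, and the other 7 probes in none. The upstream regions of the detected pair are shown because the proximal promoter is where the copies of this family can be compared with one another. They are the RefSeq sequences of GRCm38.p6 from 250 bases before to 50 bases after the gene start, at chrY:18088917-18089216 on the + strand for Ssty1 and chrY:67048023-67048322 on the - strand for Ssty2. Capitals mark the runs of 20 or more bases that both regions share.
Ssty1: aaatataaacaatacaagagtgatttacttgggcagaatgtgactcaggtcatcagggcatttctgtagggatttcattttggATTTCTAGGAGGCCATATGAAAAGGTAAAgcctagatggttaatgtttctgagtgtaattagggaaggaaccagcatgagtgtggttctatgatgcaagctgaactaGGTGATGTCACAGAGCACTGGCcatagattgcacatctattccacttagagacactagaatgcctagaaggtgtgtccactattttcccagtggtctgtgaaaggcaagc
Ssty2: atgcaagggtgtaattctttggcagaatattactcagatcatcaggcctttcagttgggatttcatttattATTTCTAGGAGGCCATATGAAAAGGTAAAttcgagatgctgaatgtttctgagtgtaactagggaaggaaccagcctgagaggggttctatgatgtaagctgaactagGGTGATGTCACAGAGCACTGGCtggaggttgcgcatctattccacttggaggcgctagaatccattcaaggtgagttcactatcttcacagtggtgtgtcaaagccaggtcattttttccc

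In a gapped alignment, the regions had 244 identical bases of 287 aligned, or 85%. The longer shared run of 29 bases lay at -167 to -139 from the gene start in Ssty1 and at -179 to -151 in Ssty2. The shorter run of 22 bases, at -60 to -39 in Ssty1 and -71 to -50 in Ssty2, held TGATGTCA, which is 1 base from the cAMP response element TGACGTCA, the site read by the spermatid activator CREM. Searched on both strands, TGATGTCA was in 3.62% of all 32851 mouse regions of this length and in 65.1% of the 232 regions on the Y chromosome. The Y regions include near-copies, so they are not independent: 33 of 230 other Y genes had a region at least 90% identical to that of Ssty1 or Ssty2. TGACGTCA was in 1.79% of all regions and in none of the Y regions, and its 5-base core TGACG, which lies inside TGACGTCA but not inside TGATGTCA, was in 20.8% and 4.74%. Neither TGACGTCA nor TGACG was in the Ssty1 or Ssty2 region. No TGATGTCA was in the regions of Spin1, Spin2c, Spin4, Slx or Slxl1.

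Ssty1 was strongly expressed in every array and higher in both shSLY arrays than in any other. Its deposited intensity was 3774 and 2594 in shSLX 1 and 2, 9211 and 9448 in shSLY 1 and 2, and 3923, 4040, 3427 and 3311 in wildtype 1 to 4. After background correction and normalization the log2 levels were 11.88 and 11.34 in shSLX arrays, 13.17 and 13.21 in shSLY arrays, and 11.94, 11.98, 11.74 and 11.69 in wildtype arrays. The shSLY arrays stood clear of the wildtype range, while 1 shSLX array lay inside it and the other below it. Group means were 11.61 ± 0.38 for shSLX (SD, n = 2), 13.19 ± 0.026 for shSLY (SD, n = 2) and 11.84 ± 0.14 for wildtype (SD, n = 4).

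Ssty2, measured by its detected probe, was also highest in both shSLY arrays. Deposited intensity was 11523 and 9007 in shSLX 1 and 2, 22052 and 21203 in shSLY 1 and 2, and 10002, 9130, 10276 and 9926 in wildtype 1 to 4. The log2 levels were 13.49 and 13.14 in shSLX arrays, 14.43 and 14.37 in shSLY arrays, and 13.29, 13.16, 13.33 and 13.28 in wildtype arrays. The shSLY arrays lay above all others, and the shSLX arrays fell on either side of the wildtype arrays. Of all tested probes, 16.6% had both shSLY arrays above all 4 wildtype arrays, and 32.3% had both shSLY arrays above both shSLX arrays, so such separation is common in these data.

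**Figure D1:**
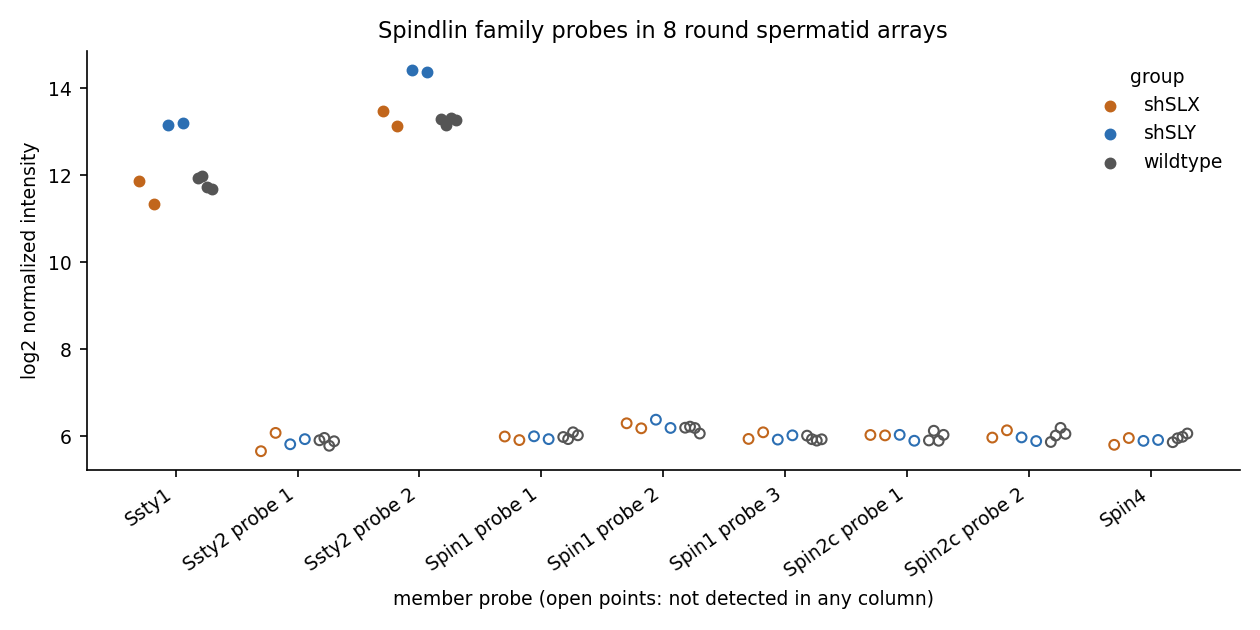
Log2 normalized intensity (vertical axis) of the 9 member probes (horizontal axis) in each of the 8 arrays, 1 point per array, coloured by group; open points are probes detected in no column. Ssty1 and Ssty2 probe 2 lie between 11.34 and 14.43, with both shSLY arrays above the rest, and the other 7 probes lie between 5.65 and 6.38; levels of different probes are not comparable with each other.

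In limma's fit with the slide as a block, Ssty1 and Ssty2 rose in the arrays labelled shSLY. Ssty1 was higher by 1.25 ± 0.20 on the log2 scale (SE), or 2.38-fold, with a 95% confidence interval of 0.80 to 1.70 and a limma adjusted p of 0.0327. The Ssty2 effect was 1.11 ± 0.16 (SE), or 2.16-fold, with an interval of 0.75 to 1.47 and a limma adjusted p of 0.0235. Both tested members were thus called, where 0.712% of all 16572 probes passed in either direction and 0.579% passed as higher. With the slide term these effects rest on wildtype 1, the 1 wildtype array on the shSLY slide. Against it, Ssty1 was 1.23 and 1.27 higher in shSLY 1 and 2, and Ssty2 was 1.14 and 1.08 higher. With no slide term and all 4 wildtype arrays, the effects were 1.35 ± 0.15 and 1.14 ± 0.11 (SE), with limma adjusted p of 0.00116 and 0.000733.

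Whether these effects passed the threshold depended on the arrays in the fit and on the array names. Their size changed less: in fits with the slide term that left out 1 array, it was 1.23 to 1.27 for Ssty1 and 1.08 to 1.14 for Ssty2. With the slide term, neither gene passed without wildtype 3 or without wildtype 4 (limma adjusted p = 0.169 for Ssty1 and 0.139 for Ssty2 in both), although those arrays are on another slide and the effects were then the same 1.25 and 1.11. Nor did they pass without shSLY 1 (1.27 and 1.08, adjusted p = 0.151 and 0.128) or without shSLY 2 (1.23 and 1.14, adjusted p = 0.156 and 0.105). With no slide term, both passed in each of the 8 fits that left out 1 array. An offset of 16 in place of 50 in the background correction left effects of 1.26 and 1.11 with adjusted p of 0.0772 and 0.0663. In the non-normalized table, with columns named through the labels, the shSLY effects were -0.33 and 0.027 (adjusted p = 0.609 and 0.973).

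In the arrays labelled shSLX, neither gene passed the test. Ssty1 differed from wildtype by -0.11 ± 0.16 on the log2 scale (SE; 95% interval -0.47 to 0.26, limma adjusted p = 0.766). For Ssty2 the difference was 0.012 ± 0.13 (SE; interval -0.28 to 0.31, limma adjusted p = 0.972). Unadjusted p-values were 0.526 and 0.925, and 2.41% of all probes passed in this comparison in either direction. Both intervals leave out a doubling and a halving of the signal, and smaller changes within them could not be told from 0. The arrays went opposite ways for both genes: against the wildtype arrays of their slide, shSLX 1 was 0.16 higher for Ssty1 and 0.19 higher for Ssty2, while shSLX 2 was at -0.38 and -0.17. Over the other 14 Y-chromosome probes the median shifts of these arrays were 0.062 and -0.27. In the non-normalized table the shSLX effects were -1.72 for Ssty1 and -1.03 for Ssty2, both past the threshold (limma adjusted p = 0.00722 and 0.0177). There the labels tie wildtype 3 and 4 to columns with the ranks of the series matrix's shSLY arrays.

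In the fit with the slide term, the effects in the arrays labelled shSLX and in those labelled shSLY differed for both genes. The shSLX effect minus the shSLY effect was -1.36 ± 0.25 (SE) for Ssty1 and -1.10 ± 0.20 (SE) for Ssty2, with limma adjusted p of 0.0399 and 0.0376. Both members thus passed as lower, where 1.8% of all probes passed in either direction and 0.628% as lower. As with the shSLY effects, the calls were lost with offset 16 (adjusted p = 0.0728 and 0.0754) and when wildtype 3, wildtype 4 or either shSLY array was left out of the fit with the slide term (adjusted p between 0.123 and 0.234).

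**Figure D2:**
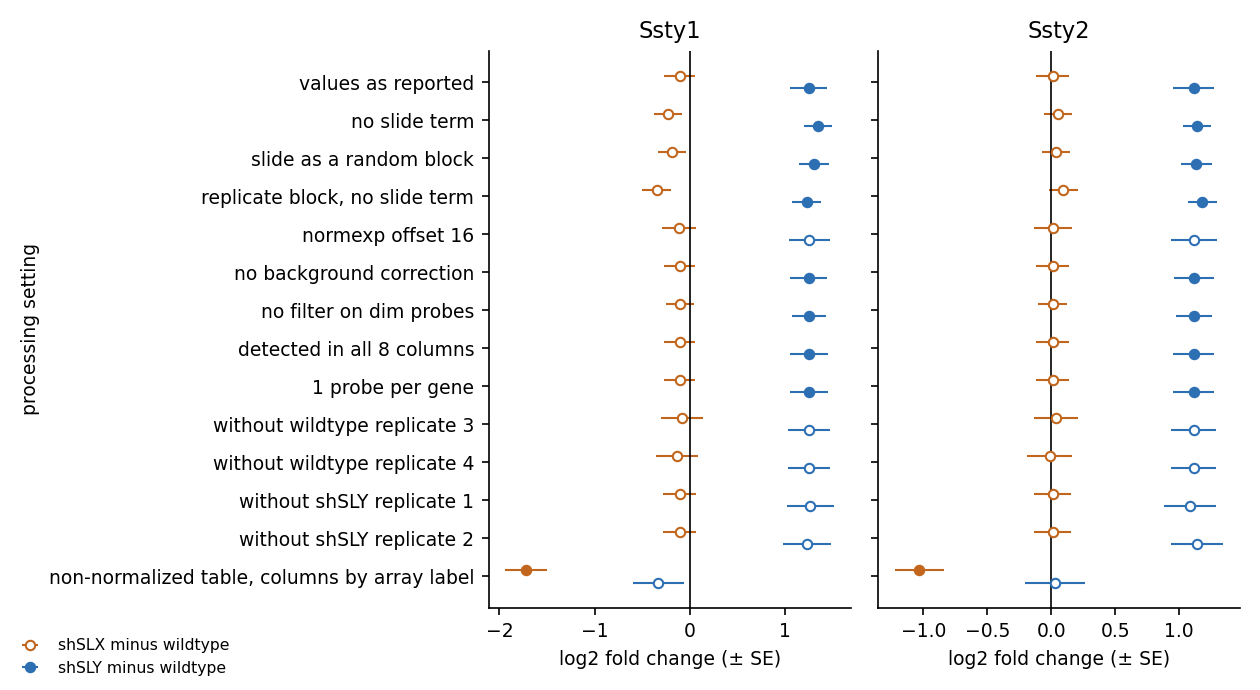
Log2 fold change ± SE (horizontal axis) of Ssty1 (left) and Ssty2 (right) in shSLX and in shSLY arrays against wildtype under each processing setting (vertical axis); filled points have a limma adjusted p under 0.05. The shSLY effects stay between 1.08 and 1.35 in all settings drawn except the non-normalized table with columns named through the labels. There they are -0.33 and 0.027, and the shSLX effects are -1.72 and -1.03. The setting with no background correction also leaves out quantile normalization.

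The rise was next set beside that of other Y probes. Besides the members, 14 Y probes were tested, and in shSLY arrays 13 of them lay above 0, with a median log2 fold change of 0.44, and 3 rose. The 14 include Gm20738, Gm21943, Gm20867, Gm20747 and Gm20815, whose upstream regions are near that of Ssty2, and the 3 that rose are among these. The remaining Y probes lay between -0.11 (Sly) and 0.75 (Rbm31y), and none of them passed. Over 348 X probes the median was 0.37 and 35 rose, and over 13443 autosomal probes it was -0.019. Among the 16 Y probes in all, Ssty1 had the second highest effect and Ssty2 the fifth. Among all 364 X and Y probes they stood at places 14 and 25.

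Probes of 3 of 5 genes whose upstream region is nearly that of Ssty2 also rose in shSLY arrays. Of 230 other Y genes with a region in RefSeq, 30 had a region at least 90% identical to that of Ssty2 over 250 or more aligned bases, 3 were this close to Ssty1 and none to both. Tested probes existed for 5 of the 30, the predicted genes Gm20738, Gm21943, Gm20867, Gm20747 and Gm20815, with identities to the Ssty2 region of 98.6% to 99.6%, and each of the 5 regions held TGATGTCA, as did those of Orly and Uty among the other tested Y genes. In shSLY arrays Gm20738 rose by 1.26 ± 0.20, Gm21943 by 1.17 ± 0.18 and Gm20867 by 1.14 ± 0.15 (SE), with limma adjusted p of 0.0327, 0.0299 and 0.0205. These were the 3 other Y probes past the threshold. Gm20747 was at 0.87 ± 0.16 (limma adjusted p = 0.0565) and Gm20815 at 0.36 ± 0.15 (0.535), neither past it.

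The levels behind these effects differed among the copies. Gm20867 had log2 levels of 13.30 and 13.00 in shSLX arrays, 14.25 and 14.17 in shSLY arrays, and 13.07, 13.02, 13.20 and 13.27 in wildtype 1 to 4. For Gm20738 they were 12.76 and 12.24 in shSLX arrays, 13.94 and 13.74 in shSLY arrays, and 12.58 to 12.67 in wildtype arrays. Gm20815 was at 14.04 and 13.74 in shSLX arrays, 14.81 and 14.67 in shSLY arrays and 14.28 to 14.39 in wildtype arrays. In Gm20815, unlike the other copies named here, both shSLX arrays lay below every wildtype array. Near-identical copies can bind the same probe, so the probes of Ssty1, Ssty2 and these genes may not be independent measurements, and which copies each probe reads is not known here.

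Orly, a Y gene reported as a composite that includes Ssty1 sequence, had a region 93.6% identical to that of Ssty1. With TGATGTCA in its region, its probe was at 0.091 ± 0.12 (SE) in shSLY arrays and 0.027 ± 0.097 in shSLX arrays, with limma adjusted p of 0.93 and 0.912. Its levels were 6.26 and 6.19 in shSLX arrays, 6.56 and 6.52 in shSLY arrays and 6.19 to 6.45 in wildtype arrays, close to background. The single-copy Y genes Zfy1 (zinc finger protein), Usp9y (deubiquitinase) and Eif2s3y (translation initiation factor) were at 0.44, 0.36 and 0.36 in shSLY arrays. Uty (histone demethylase relative, with TGATGTCA in its region) was at 0.071 there, and none of these genes passed. Like Orly, Uty was close to background, with levels of 6.38 to 6.64 over all arrays, and Zfy1 was at 6.91 to 7.59.

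**Figure D3:**
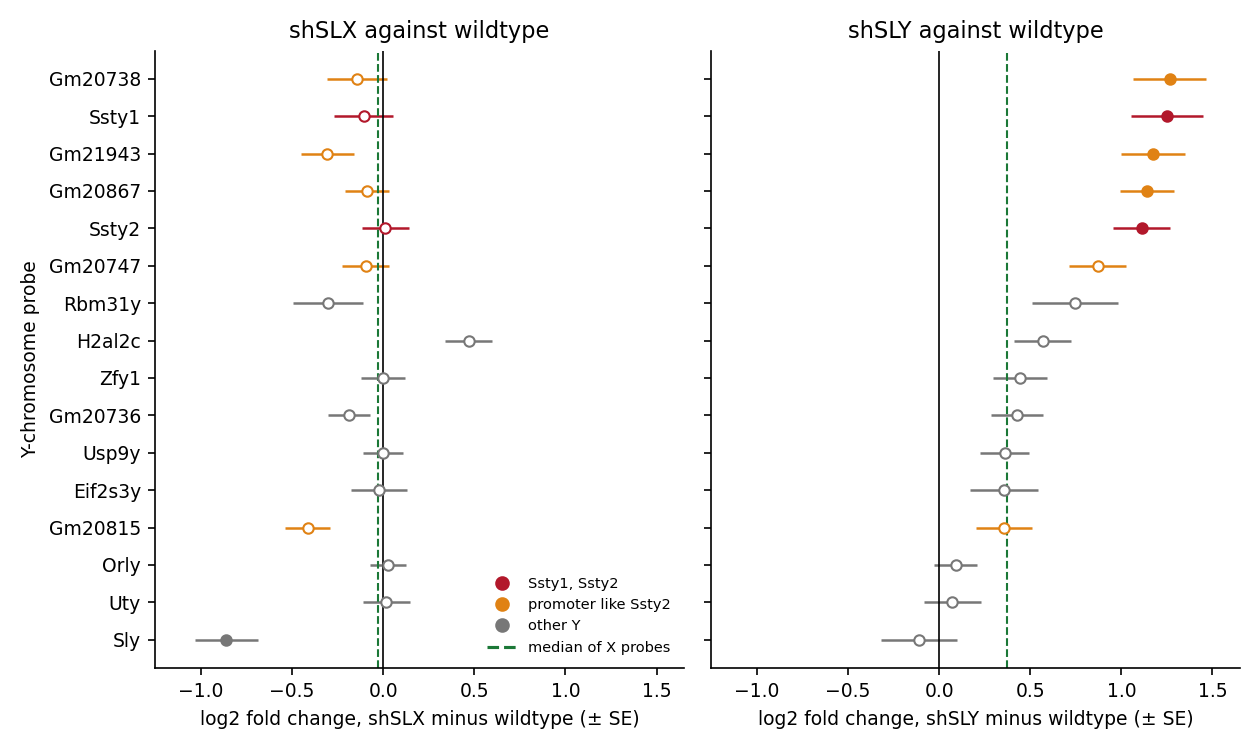
Log2 fold change ± SE (horizontal axes) of the 16 tested Y-chromosome probes (vertical axis) in shSLX arrays against wildtype (left) and shSLY arrays against wildtype (right); filled points have a limma adjusted p under 0.05 and the dashed line is the median of 348 X probes. In shSLY arrays Ssty1, Ssty2 and 4 of the 5 genes with an upstream region like that of Ssty2 occupy the top 6 places, between 0.87 and 1.26, and in shSLX arrays the filled point is Sly.

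Sly, the target of the shSLY construct and a partner of spindlins in spermatids, behaved differently from both Ssty genes. Its log2 levels were 9.45 and 8.93 in shSLX arrays, 10.56 and 10.26 in shSLY arrays, and 10.52, 10.36, 10.05 and 10.04 in wildtype 1 to 4. It fell by 0.86 ± 0.17 (SE) in arrays carrying the shSLX label (limma adjusted p = 0.0377) and was at -0.11 ± 0.21 in those labelled shSLY (0.959). This target check rests on 1 probe of the Sly family and does not bear out the label shSLY, and no probe is named Slx or Slxl1. Over 348 X probes the median log2 fold change was 0.37 in the arrays labelled shSLY and -0.030 in those labelled shSLX. The arrays in which Sly fell, shSLX 1 and 2 of the series matrix, have the ranks of the non-normalized columns tied to shSLY 1 and 2. In that non-normalized table the shSLY effects on Ssty1 and Ssty2 were -0.33 and 0.027. Which naming is right was not tested. Ssty signals were then set against Sly within each array.

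Relative to the wildtype mean, the log2 ratio of Ssty1 to Sly was 0.84 and 0.82 in shSLX arrays and 1.02 and 1.35 in shSLY arrays, with wildtype arrays between -0.18 and 0.094. For Ssty2 and Sly it was 1.03 and 1.19 in shSLX arrays and 0.85 and 1.09 in shSLY arrays, with wildtype arrays between -0.25 and 0.26. This was not particular to Ssty in shSLX arrays, where all 13 other Y probes also had ratios to Sly above every wildtype array, and it held for 7 of the 13 in shSLY arrays. The 7 were Gm20738, Gm21943, Gm20867 and Gm20747, with upstream regions near that of Ssty2, and Rbm31y, H2al2c and Gm20736. The first group may read the same copies as the Ssty probes, so the 13 are not a background free of the family. The ratio of Ssty1 to Ssty2 was -0.19 and -0.37 in shSLX arrays and 0.16 and 0.26 in shSLY arrays, with wildtype arrays between -0.16 and 0.25. Such ratios show unequal change of a pair of probes and were not tested.

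**Figure D4:**
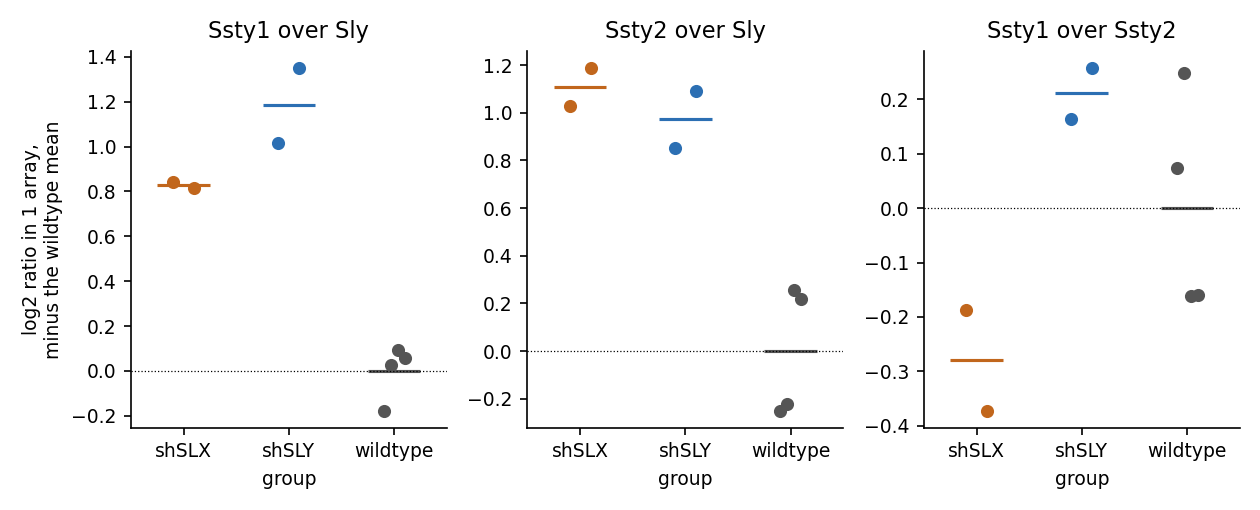
Log2 ratio of a pair of probe signals within each array, with the wildtype mean set to 0 (vertical axes), by group (horizontal axes); points are arrays and bars are group means. Ratios of Ssty1 and Ssty2 to Sly lie between 0.82 and 1.35 in the shSLX and shSLY arrays and between -0.25 and 0.26 in wildtype arrays, while those of Ssty1 to Ssty2 stay between -0.37 and 0.26.

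By Pearson correlation of log2 level over the 8 arrays, the named probes of other genes most like Ssty1 were those of Dmrtc1a (0.996), Zcchc13 (0.995), Klhl15 (0.994), Ube2dnl2 (0.993) and Cldn34b3 (0.993), all X-linked. Those most like Ssty2 were another Zcchc13 probe (0.994), the testis homeobox gene Tgif2lx1 (0.993), Gm20867 (0.993), Cldn34b2 (0.992) and Cldn34b4 (0.991), of which Gm20867 is Y-linked and the rest X-linked. The 8 points are dominated by the shSLY arrays. Over the other 6 arrays the same correlations were 0.942 to 0.993 for Ssty1 and 0.797 to 0.845 for Ssty2. Ssty1 and Ssty2 correlated at 0.96 with each other over 8 arrays and at 0.39 over the 6 without shSLY. These values describe 8 arrays that share slides, and 13846 probes were searched for each gene.

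The autosomal and X-linked spindlins were not detected. The 3 probes of Spin1, the autosomal member, had detection p-values of 0.016 or more throughout. Their log2 levels were 5.91 to 6.30 in shSLX arrays, 5.92 to 6.38 in shSLY arrays and 5.90 to 6.22 in wildtype arrays. Spin2c had levels of 5.97 to 6.14 in shSLX arrays, 5.89 to 6.03 in shSLY arrays and 5.87 to 6.19 in wildtype arrays over its 2 probes, and Spin4 had 5.80 and 5.96, 5.89 and 5.91, and 5.86 to 6.06 in the same groups. Both are X-linked spindlins. All groups overlapped, and not being above background gives only an upper bound on the signal of each probe.

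The other Ssty2 probe (ILMN_2762855) was also undetected, at 5.65 and 6.08 in shSLX arrays, 5.81 and 5.93 in shSLY arrays, and 5.78 to 5.96 in wildtype arrays. The 2 Ssty2 probes therefore disagree, and the Ssty2 results above come from the bright one. The X-linked relative Spin2-ps1, no member by name, was likewise at 5.78 to 6.08 in all arrays and undetected. With no filter on dim probes, all 9 member probes entered the fit, and the same number passed in each comparison: 0 in shSLX and 2 in shSLY arrays.

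Spindoc encodes a protein that docks to SPIN1 and was detected by 1 of its 3 probes. Its log2 levels were 8.88 and 8.73 in shSLX arrays, 9.74 and 10.00 in shSLY arrays, and 9.96, 10.06, 9.15 and 9.03 in wildtype 1 to 4. The shSLX arrays and wildtype 3 and 4, which the barcodes place on the same slide, were all below the other 4 arrays. Against wildtype it was at -0.28 ± 0.12 (SE) in shSLX and -0.095 ± 0.15 in shSLY arrays, with limma adjusted p of 0.279 and 0.948.

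Genes of the chromatin marks that spindlins read were examined next. Of 25 writers, erasers and readers of methylated histone H3 lysine 4 and of enzymes for the neighbouring arginine, 20 were tested and none was called in either comparison by limma, while 4 in shSLX and 0 in shSLY arrays had an unadjusted p under 0.05. Of all probes, 2.41% and 0.712% were called in these comparisons, and 17.2% and 8.91% had an unadjusted p under 0.05, so a count of 0 calls among 20 genes is no result about them. The median log2 fold change was -0.16 in shSLX arrays (all probes -0.018) and 0.049 in shSLY arrays (all probes -0.013). The methyltransferase gene Setd1b was lowest in shSLX arrays at -0.69 ± 0.22 (SE, limma adjusted p = 0.168), and Kmt2a was highest at 0.36 ± 0.15 (0.259). Kmt2a, at 0.30 ± 0.18, was also highest in shSLY arrays (0.738). Prmt6, an arginine methyltransferase gene, was at 0.061 and -0.086.

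Among 14 partners and reported targets of SPIN1, 7 were tested and none passed in limma's test, with 3 in shSLX and 0 in shSLY arrays at an unadjusted p under 0.05. Against the same shares of all probes, 0 of 7 called is no result about these genes either. Their medians were -0.11 in shSLX and 0.030 in shSLY arrays. Serbp1, an RNA-binding protein gene, was at -0.30 and 0.030, and the Wnt pathway genes Lef1 and Ctnnb1 were at -0.38 and 0.15, and at 0.075 and 0.027. Of 12 X-linked Slx and Xlr genes, 7 had a named probe and 1 was tested, Xlr4a, at 0.69 ± 0.20 in shSLX and 0.36 ± 0.24 in shSLY arrays (SE, limma adjusted p = 0.14 and 0.797).

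Markers of other cells moved with some groups, and their part in the Ssty results was not tested. In shSLY arrays no detected marker of meiotic cells, spermatogonia, Sertoli, Leydig, stromal, immune or erythroid cells passed limma's test. Insl3, the 1 of 6 Leydig genes detected, had an intensity of 264 to 308 in shSLY arrays against 160 to 201 in wildtype arrays, and the globin gene Hba-a1 had 840 to 1325 against 105 to 795. In shSLX arrays all 3 detected stromal genes of 7 rose (Acta2, Myh11 and Dcn), with a summed intensity of 910 to 921 against 368 to 634 in wildtype arrays. The macrophage genes Lyz2 and C1qc and the spermatogonial gene Sohlh1 also rose there, by 0.95, 0.56 and 0.73 (limma adjusted p = 0.0209, 0.0421 and 0.0121). Of 5 immune genes tested, C1qb, Csf1r and Adgre1 did not pass in shSLX arrays, at 0.35, 0.28 and -0.051. The summed immune intensity was 604 to 715 in shSLX arrays, within the 474 to 807 of wildtype arrays. Of 3 spermatogonial genes tested, Kit and Uchl1 did not pass, at 0.095 and 0.31.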

How the data were processed

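The deposited series matrix gives a linear intensity per probe, from 46.4 to 42689, with array medians of 73.6 to 73.7. Intensity before normalization is in another deposited table, which pairs every array with its detection p-value according to the header. The submitters' processing notes list BeadStudio and GenomeStudio; the normalization and any background subtraction are not stated.

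Series matrix values were background-corrected (limma normexp, offset 50), quantile-normalized and converted to log2. Group and slide were fitted with lmFit and eBayes (limma 3.58.1, R 4.3.3) over 8 arrays (residual degrees of freedom 3, prior 5.69). P-values are two-sided and adjusted by Benjamini-Hochberg over 16572 probes, at a threshold of 0.05. The number of arrays limits the precision. For gene lists, 1 probe per gene was used, the brightest. The platform annotation gave 1 symbol for 34885 probes, several for 18 and none for 10378; 34807 were matched to GRCm38.p6 names, a table used for names and upstream regions only, since the files name no build. Regions were aligned with Biopython 1.88.

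Named genes were the members at every probe, members of the fixed lists, and the 5 probes most correlated with each detected member; members and lists were chosen with earlier results of these data known. Alternatives covered the slide, background, filter, table (non-normalized, with limma's neqc), probe choice and each left-out array. Scripts were tested on simulated data.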

Additional observations from a re-analysis of the deposited data

Results flagged for a closer look

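The shSLX and shSLY effects differed in limma's test of the difference for both detected members. The difference (shSLX effect minus shSLY effect, log2) was -1.36 for Ssty1, with arrays at 11.88 and 11.34 in shSLX, 13.17 and 13.21 in shSLY and 11.69 to 11.98 in wildtype. It was -1.10 for Ssty2, with arrays at 13.49 and 13.14 in shSLX, 14.43 and 14.37 in shSLY and 13.16 to 13.33 in wildtype. Both calls are for the arrays as named by sample accession, and they were lost with offset 16 (limma adjusted p = 0.0728 and 0.0754). They were also lost without wildtype 3 or without wildtype 4 in the fit with the slide term. No wildtype array stood apart from the other 3 for any of the 9 member probes by Dixon's criterion. That criterion looks for a single array apart and cannot show a split into pairs. Ssty1 was at 11.94 and 11.98 in wildtype 1 and 2 and at 11.74 and 11.69 in wildtype 3 and 4.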

How the results depend on the processing

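With slide left out or as a random block, 2 member probes passed in shSLY arrays and 0 in shSLX arrays, as in the fit reported. The same counts held with neither background correction nor quantile normalization, with no filter, with probes detected in all 8 columns and with 1 probe per gene. On the slide of the shSLX arrays alone, 0 passed. On the slide of the shSLY arrays alone, the effects were 1.25 for Ssty1 and 1.11 for Ssty2. With offset 16, 0 passed in shSLY arrays and 0 in the test of the difference. In the non-normalized table with columns named through the labels, 2 passed in shSLX arrays, 0 in shSLY arrays and 0 in the difference; there the shSLX effect on Ssty2 was -1.03 and the shSLY effect on Ssty1 was -0.33, both turned in sign. The groups there are made of other arrays. With 1 array left out, the number passing ranged from 0 to 2 in shSLY arrays and in the difference, and stayed at 0 in shSLX arrays. The shSLX effect then ranged from -0.38 to 0.16 for Ssty1 and from -0.17 to 0.19 for Ssty2 with the slide term, and from -0.50 to 0.043 and from -0.13 to 0.23 without it, so neither has a settled sign. Without wildtype 1 the shSLY effect could not be fitted with the slide term. Without wildtype 3 and 4 and with no slide term, an alternative chosen after seeing the data, Ssty1 was at 1.23 and Ssty2 at 1.18 in shSLY arrays (limma adjusted p = 0.012 and 0.00682).

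The labels do not say that a replicate number marks a shared animal, batch or day, and deviations of same-numbered arrays from their group means correlated between -0.084 and 0.22 over 6 pairs. With the replicate number as a block and no slide term, the shSLY effects were 1.23 for Ssty1 and 1.18 for Ssty2 and the shSLX effects -0.35 and 0.092, and 2 member probes passed in shSLY arrays and 0 in shSLX arrays. Undetected probes have only a bound, and the brightest probes lie near the top of the scale.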

Other observations

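The non-normalized table gives Ssty1 intensities of 2364 and 2384 in the columns that the labels tie to shSLX 1 and 2, 3595 and 1825 in those tied to shSLY 1 and 2, and 4986, 4742, 10277 and 9899 in those tied to wildtype 1 to 4. For Ssty2 they are 9098 and 8631 under shSLX, 11154 and 6630 under shSLY, and 12428, 10650, 26264 and 24241 under wildtype 1 to 4. In each table, 2 arrays exceed the other 6 for both genes, and the labels tie them to shSLY in the series matrix and to wildtype in the non-normalized table. The columns tied to shSLX, which match no series matrix column, have best rank correlations of 0.893 and 0.916 with any series matrix column.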
